A study of Mus musculus with 12 samples.

Results

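The MHC class II presentation genes are 10 genes that build, load and switch on the antigen-presenting molecules of B cells, dendritic cells and macrophages. They were chosen by symbol, and all 10 were found among the 24421 gene symbols of the count table. They comprise the peptide-binding chains H2-Aa, H2-Ab1 and H2-Eb1, the invariant chain Cd74, the H2-DM genes H2-DMa, H2-DMb1 and H2-DMb2, the H2-O genes H2-Oa and H2-Ob, and the transactivator Ciita. All 10 were among the 12744 genes that passed the low-count filter.

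Expression was measured by RNA-seq in LSK cells sorted from mouse bone marrow by GFP, absent lineage markers, Kit and Sca-1, a gate meant for blood stem cells and early progenitors. Secondary recipients had received donor cells of 1 of 4 genotypes: miR146aKO (no miR-146a, titled Mir-146 KO/Empty), Runx1mut (the frameshift mutant Runx1S291fsX300), miR146aKO_Runx1mut (both changes) and wildtype (wildtype for both, titled Empty). Each genotype had 3 libraries, 12 in all. Every group shares the GFP sort and the secondary transplant. The labels do not say what Empty stands for, how the mutant Runx1 or the GFP was brought into the cells, the age or strain of the mice, or whether each library came from 1 animal. The p-values therefore measure only the spread between these libraries, which may be technical. Libraries are named by the identifier that heads their column.

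In an antigen-presenting cell, an alpha and a beta chain pair in the endoplasmic reticulum around the invariant chain, which blocks the groove and steers the complex to endosomes. Proteases there cut the invariant chain down to a short peptide, H2-DM exchanges it for antigen peptides, and H2-O restrains H2-DM, chiefly in B cells. Ciita does not bind DNA itself. It joins factors already sitting on the X and Y boxes of these genes' promoters and is the limiting switch of the whole set. Early blood progenitors are thought to make less class II than antigen-presenting cells do.

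Total counts ran from 3540043 to 4353971 in miR146aKO, 5417624 to 7026393 in Runx1mut, 4907029 to 6522388 in miR146aKO_Runx1mut and 4387524 to 6642886 in wildtype. The miR-146a gene Mir146 had 14 counts in A031, labelled miR146aKO_Runx1mut, and 0 in the other 11 libraries, so its 0 counts check no label and the 14 go against that of A031. Runx1 stood at 139 ± 36.3 CPM in miR146aKO, 374 ± 211 in Runx1mut, 190 ± 69.5 in miR146aKO_Runx1mut and 279 ± 69.8 in wildtype (mean ± SD, n = 3). CPM is the count scaled to library size and composition. A count per gene cannot show the frameshift. The gate's markers were present in every library, but Kit was at 24.6 to 59.7 CPM in miR146aKO and 218 to 436 CPM in wildtype, and Ly6a, which encodes Sca-1, at 505 to 1019 and 46.0 to 216 CPM.

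Promoter windows were matched for 7 of the 10 genes (RefSeq, GRCm38.p6, 300 bases from 250 before to 50 after each annotated start, 8 windows because H2-DMa has 2). Those of 6 genes are shown because class II promoters are known for a shared pair of elements. All lie on chromosome 17 in the MHC. Each line gives 110 bases, from 140 to 31 before the start, on the gene's strand, and capitals mark the X box core (AAC, any 2 bases, then ATGATG), the Y box core ATTGG (its reverse complement CCAAT is marked too) and, in H2-Aa, the cyclic AMP response element TGACGTCA. Both strands were searched, and the X box letters were chosen after reading these sequences.
H2-Eb1: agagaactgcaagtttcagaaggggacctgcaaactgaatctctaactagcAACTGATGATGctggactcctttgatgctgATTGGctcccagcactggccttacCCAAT
H2-DMb1: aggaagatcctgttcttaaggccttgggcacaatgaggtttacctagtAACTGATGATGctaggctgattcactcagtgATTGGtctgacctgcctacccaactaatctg
H2-DMb2: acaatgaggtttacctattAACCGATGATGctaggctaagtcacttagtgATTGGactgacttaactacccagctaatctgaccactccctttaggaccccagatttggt
H2-Ob: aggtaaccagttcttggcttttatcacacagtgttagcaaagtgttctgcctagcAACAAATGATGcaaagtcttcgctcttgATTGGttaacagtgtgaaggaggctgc
H2-Aa: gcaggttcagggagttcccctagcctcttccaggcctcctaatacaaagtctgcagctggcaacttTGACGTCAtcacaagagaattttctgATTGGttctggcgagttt
H2-Oa: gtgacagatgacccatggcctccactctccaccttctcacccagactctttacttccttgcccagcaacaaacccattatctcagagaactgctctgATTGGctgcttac

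The windows are chr17:34305727-34305836 for H2-Eb1, chr17:34153051-34153160 for H2-DMb1, chr17:34145109-34145218 for H2-DMb2, chr17:34238765-34238874 for H2-Ob and chr17:34092239-34092348 for H2-Oa, all on the plus strand, and chr17:34287854-34287963 on the minus strand for H2-Aa. The X and Y cores stood together in H2-Eb1, H2-DMb1, H2-DMb2 and H2-Ob, 17 to 20 bases apart. Over the 32851 promoter windows of the mouse table, 0.0578% held both, 0.137% the X core, 37.4% the Y core and 1.79% the cyclic AMP element. H2-DMb1 and H2-DMb2 are near-identical neighbours, so their promoters are not independent. Neither window of H2-DMa held the X core, and ATTGG stood there only once, 198 bases before the second start. These matches describe letters, not binding.

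Class II transcripts were most abundant in the miR146aKO libraries. Together the 10 genes took 0.351% of all counts in A047, 1.63% in A150 and 1.18% in A151 of miR146aKO, against 0.0428% to 0.101% in the wildtype libraries. The share was 0.0313% to 0.117% in Runx1mut and 0.018% to 0.111% in miR146aKO_Runx1mut. All 3 miR146aKO libraries thus lay above the other 9. In sorted bulk cells, fewer cells of a type and less RNA per cell cannot be told apart.

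**Figure D1:**
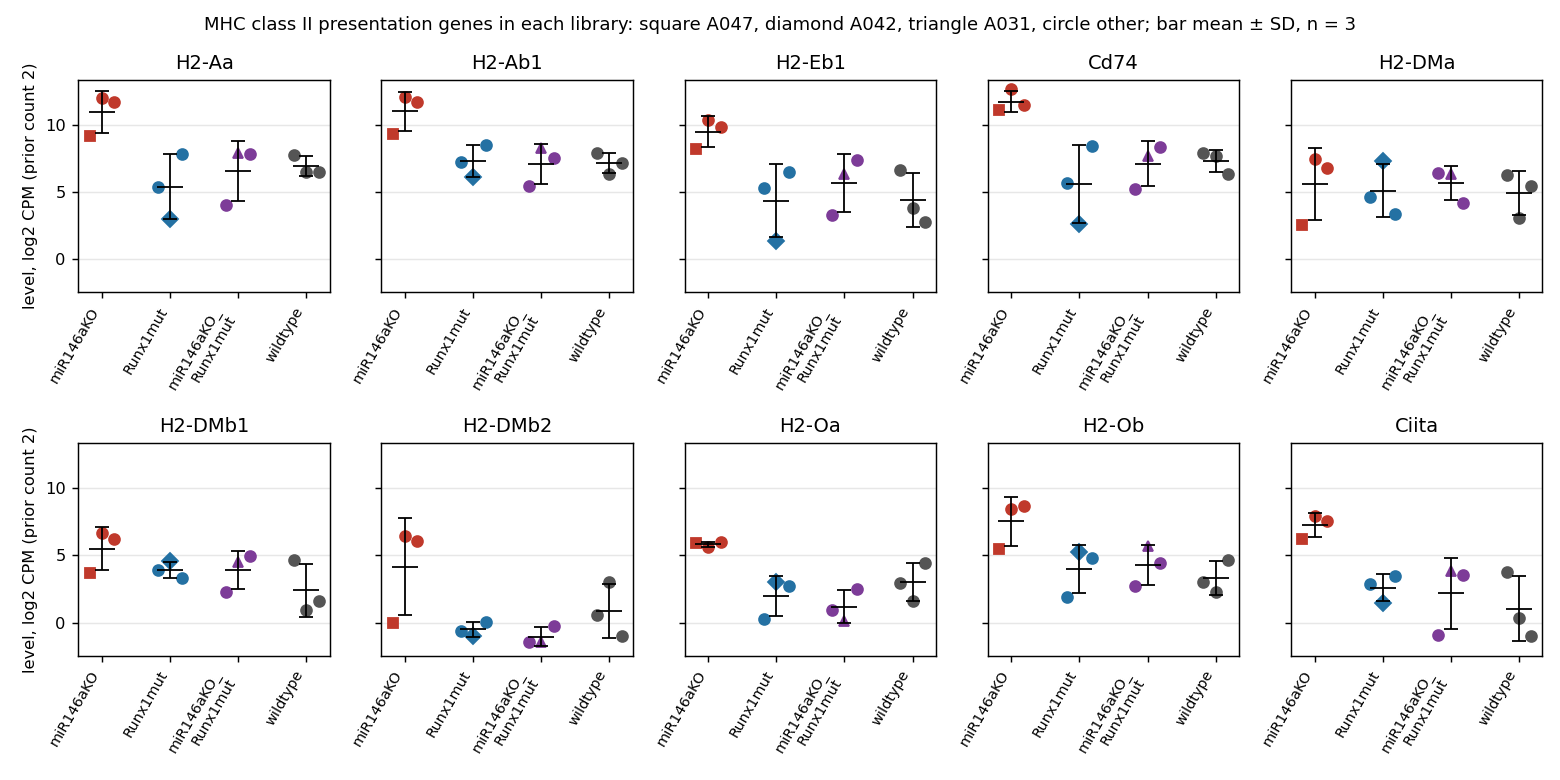
Level of each of the 10 genes (log2 CPM with a prior count of 2, y axis) in the 12 libraries by genotype. Points are libraries, bars mean ± SD of 3 libraries; the miR146aKO libraries are highest for most genes, while A047 (square) sits within the wildtype range for H2-DMb1 and H2-DMb2 and below it for H2-DMa.

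H2-Ab1, the beta chain of the I-A molecule (GRCm38 chromosome 17, 34257689 to 34269419), was at 649 CPM (A047), 4241 (A150) and 3268 (A151) in miR146aKO, against 235, 81.9 and 146 CPM in A015, A040 and A053 of wildtype. It was at 71.0 to 363 CPM in Runx1mut and 42.6 to 317 CPM in miR146aKO_Runx1mut. The miR146aKO libraries did not overlap any other group, and the other 3 groups overlapped each other.

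H2-Aa, the alpha chain that pairs with it (34282744 to 34287823), was at 569, 4107 and 3359 CPM in A047, A150 and A151 of miR146aKO and at 217, 91.9 and 87.8 CPM in A015, A040 and A053 of wildtype. It ranged from 7.40 to 225 CPM in Runx1mut and from 15.8 to 242 CPM in miR146aKO_Runx1mut. H2-Eb1, the beta chain of I-E (34305867 to 34316674), was at 300, 1346 and 943 CPM in the same miR146aKO libraries and at 97.96, 13.8 and 6.41 CPM in wildtype. Its antisense neighbour Gm20513 overlaps it, and without strand information reads of both cannot be told apart. For each chain the A047 library was the lowest of its group and still above every library of the other genotypes.

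The I-A chains were detected in nearly equal numbers where they were abundant. Counts of H2-Aa per count of H2-Ab1 were 0.876 in A047, 0.968 in A150 and 1.03 in A151 of miR146aKO, and 0.604 to 1.12 in wildtype. In A042 of Runx1mut this ratio was 0.104, with 52 counts of H2-Aa and 499 of H2-Ab1, and in A021 it was 0.269. In A058 it was 0.619, and in A001, A031 and A051 of miR146aKO_Runx1mut it was 0.372, 0.765 and 1.24. The ratio within a library needs no scaling between libraries, and it was lowest in A042, A021 and A001.

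Cd74, the invariant chain (chromosome 18, 60803848 to 60812652), was the most abundant of the 10 per length. Its level was 2279 ± 1349 CPM per kilobase of exon in miR146aKO and 104 ± 49.0 in wildtype, next to 1059 ± 723 and 60.05 ± 30.0 for H2-Ab1 (SD, n = 3). By library it was at 2219, 6417 and 2843 CPM in A047, A150 and A151 of miR146aKO, against 238, 204 and 82.0 CPM in A015, A040 and A053 of wildtype. A042 of Runx1mut was lowest, at 5.83 CPM from 41 counts. The miR146aKO libraries were again above all others, and here A047 was closer to A151 than A151 was to A150.

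In miR146aKO against wildtype, the tests asked whether loss of miR-146a alone was accompanied by a different class II level. The edgeR log2 fold changes of the 10 genes had a median of 4.24 and ran from 1.16 to 5.16, beside a median of -0.003 over all 12744 genes tested. All 10 were above 0, as were 49.9% of all genes. None was called by edgeR at an adjusted p under 0.05, where 0.149% of all genes were called higher and 0.0314% lower. An unadjusted p under 0.05 was found for 9, all on the higher side, against 8.81% of all genes higher and 7.09% lower. The number called was 6 by DESeq2, 2 by limma-voom and 6 by edgeR with no low-count filter, fits that called 4.86%, 0.549% and 2.83% of all their genes higher. The libraries did not overlap for 7 of the 10, all higher, against 10.7% of all genes higher and 10.3% lower. The exceptions were the 3 H2-DM genes.

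H2-Ab1 had a log2 fold change of 4.14 ± 0.86 (SE, edgeR adjusted p = 0.0609) and Cd74 of 4.45 ± 1.15 (adjusted p = 0.103). H2-Aa was at 4.34 ± 1.18 (adjusted p = 0.116) and H2-Eb1 at 4.45 ± 1.32 (adjusted p = 0.138). All were higher in 3 of 3 miR146aKO libraries than in any wildtype library. Without A047, H2-Ab1 and H2-Ob were called by edgeR, in a fit that called 113 higher and 22 lower of 13460 genes. H2-Ab1 and Cd74 were called without A042 (80 higher and 22 lower of 13490 genes). H2-Ab1 alone was called without A058 (37 and 6 of 13453) or without A001 (45 and 12 of 13542). The fit of all 12 libraries called 19 higher and 4 lower of 12744 genes. With A150 or A151 left out, 7 and 6 of the 10 in place of 9 had an unadjusted p under 0.05.

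**Figure D2:**
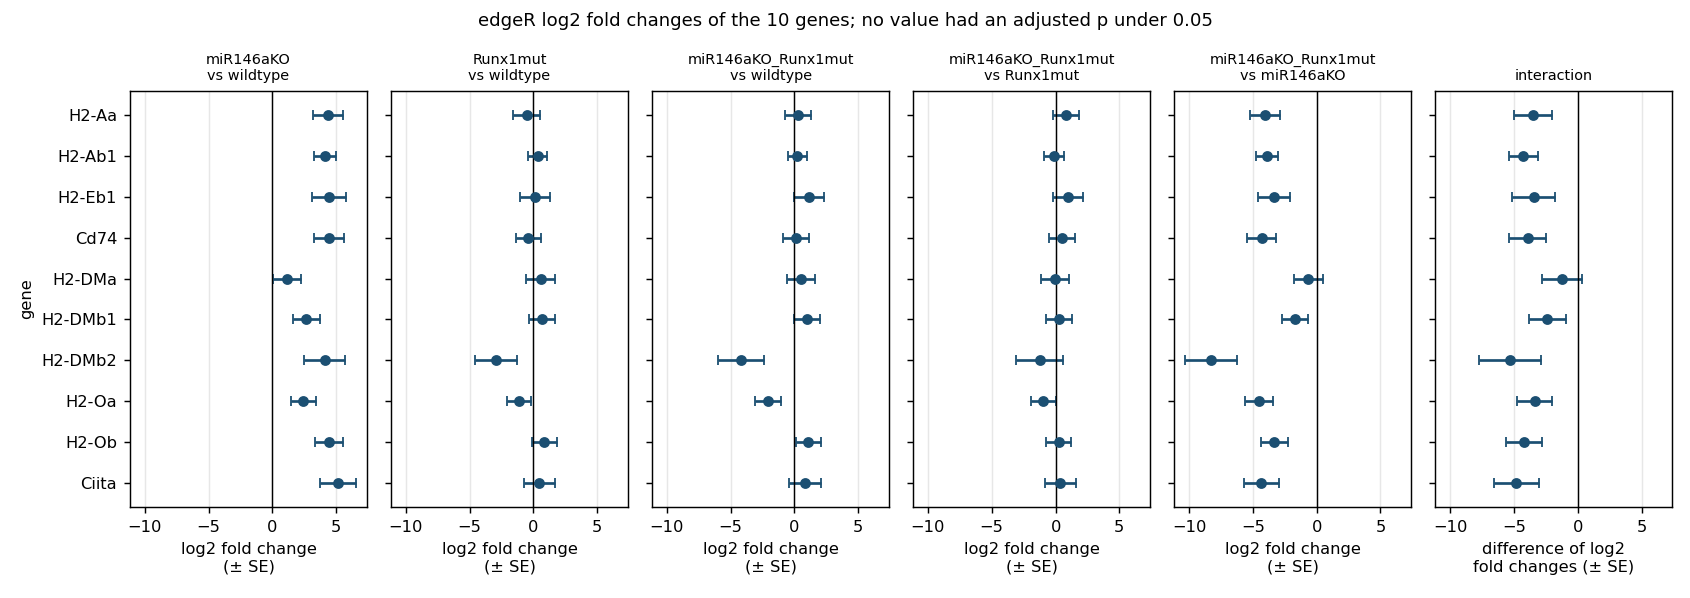
edgeR log2 fold change (x axis, points, with SE as bars) of each gene (rows) in the 5 comparisons and the interaction. Values sit between 1.16 and 5.16 in miR146aKO against wildtype between -8.28 and -0.65 in miR146aKO_Runx1mut against miR146aKO, and between -5.33 and -1.21 in the interaction. In the 3 other comparisons the medians are 0.24 to 0.40.

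Ciita, the transactivator (chromosome 16, 10480059 to 10528418), was scarce outside miR146aKO. It was at 75.9, 247 and 191 CPM in A047, A150 and A151 of miR146aKO and at 13.1, 0.888 and 0.142 CPM in A015, A040 and A053 of wildtype. Runx1mut had 2.42 to 10.4 CPM and miR146aKO_Runx1mut 0.172 to 14.2 CPM. The lowest values rest on few reads: 1 count in A053, 1 in A001 and 4 in A040. The groups miR146aKO and wildtype did not overlap, with a log2 fold change of 5.16 ± 1.42 (SE, edgeR adjusted p = 0.116). A015 held 96 of the 101 wildtype counts, and without it the value was 8.43 (adjusted p = 0.0655, and 1.99e-05 to 0.506 over all alternatives). Ciita overlaps Dexi on the other strand, which was at 22.4 to 32.7 CPM in miR146aKO and 4.66 to 19.8 CPM in wildtype. Their part in each other's counts was not tested.

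The 3 H2-DM genes, whose products form the peptide exchanger, did not share this pattern. H2-DMa, its alpha chain (chromosome 17, 34119541 to 34139101), was at 5.37 (A047), 172 (A150) and 111 CPM (A151) in miR146aKO, against 78.4, 8.22 and 42.4 CPM in A015, A040 and A053 of wildtype. A042 of Runx1mut had 155 CPM, almost as much as A150, although it was lowest of all libraries for Cd74 and H2-Aa. A047 had the least H2-DMa of all 12 libraries. The groups overlapped fully, and the log2 fold change in miR146aKO against wildtype was 1.16 ± 1.12 (SE, edgeR adjusted p = 0.672). It was 0.44 without A150, 0.64 without A040 and 1.92 without A015.

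Counts of H2-DMa per count of H2-Ab1 ran from 0.00828 in A047 of miR146aKO to 2.19 in A042 of Runx1mut and 2.02 in A001 of miR146aKO_Runx1mut. Among wildtype libraries they were 0.1 to 0.333. H2-DMa overlaps Brd2, a broadly expressed chromatin gene on the other strand. Brd2 was at 543 CPM in A047 and 674 CPM in A042, where H2-DMa was lowest and near its highest. Its part in the H2-DMa counts was not tested.

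H2-DMb1 and H2-DMb2 are neighbouring copies of the beta chain, and the authors' counting may split reads between them, so each value is uncertain. H2-DMb1 (34153072 to 34160230) was at 12.3, 99.0 and 74.7 CPM in A047, A150 and A151 of miR146aKO and at 24.9, 1.55 and 2.71 CPM in A015, A040 and A053 of wildtype. H2-DMb2 (34143307 to 34151555) was at 0.632, 84.7 and 66.9 CPM in those miR146aKO libraries and at 1.09, 7.77 and 0.142 CPM in wildtype. Both were high in A150 and A151 and within the wildtype range in A047. A150 and A151 held 91.9% of all H2-DMb2 counts of the 12 libraries. The log2 fold changes were 2.66 ± 1.08 for H2-DMb1 (SE, edgeR adjusted p = 0.253) and 4.09 ± 1.61 for H2-DMb2 (adjusted p = 0.239). Without A015 that of H2-DMb1 was 4.84, and without A040 that of H2-DMb2 was 6.28.

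The H2-O genes, which encode the inhibitor of H2-DM, differed from each other. H2-Oa (34092340 to 34095234) was even within miR146aKO, at 58.8, 49.4 and 64.0 CPM in A047, A150 and A151, against 7.53, 2.66 and 21.8 CPM in A015, A040 and A053 of wildtype. H2-Ob (34238903 to 34254414) was at 43.3, 358 and 404 CPM in those miR146aKO libraries and 7.66, 4.44 and 25.3 CPM in wildtype. Neither overlapped wildtype. H2-Oa was the member with the smallest spread in miR146aKO, at 57.4 ± 7.43 CPM (SD, n = 3), and the member for which A047 was not the lowest. Its log2 fold change was 2.42 ± 1.00 (SE, edgeR adjusted p = 0.259) and that of H2-Ob 4.42 ± 1.10 (adjusted p = 0.0922). H2-Oa overlaps the antisense gene BC051537.

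Runx1mut against wildtype, which asks about the mutation alone, showed no common direction. The median log2 fold change was 0.24, beside 0.01 over all genes, and 6 of the 10 were above 0, as were 50.3% of all genes. No member was called by edgeR, like 0% of all genes in either direction. DESeq2 and limma-voom called no member either. Over all genes DESeq2 called 50 higher and 72 lower of 13534, and limma-voom 0 of 12744. No member had an unadjusted p under 0.05 by edgeR (2.64% of all genes higher, 2.88% lower), and none was separated from wildtype (5.72% and 6.41%). H2-DMb2 was lowest, at -2.94 ± 1.62 (SE, edgeR adjusted p = 0.945), and H2-Ob highest, at 0.86 ± 0.97 (adjusted p = 1). The Runx1mut libraries spread widely. Cd74 was at 50.2 CPM in A021, 5.83 in A042 and 345 in A058, on both sides of the wildtype range of 82.0 to 238 CPM. Leaving out 1 library moved the median to between -0.69 (without A058) and 0.70 (without A015), and it was also below 0 without A040 (-0.15) or A053 (-0.08). H2-DMb2 was at -0.75 without A040.

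The double genotype miR146aKO_Runx1mut overlapped wildtype throughout. H2-Ab1 was at 42.6 CPM in A001, 317 in A031 and 182 in A051 of miR146aKO_Runx1mut, against 81.9 to 235 CPM in wildtype. The groups overlapped for all 10 genes, while 6.32% of all genes were separated upwards and 7.17% downwards. The median log2 fold change was 0.40, beside 0.03 over all genes, and 8 of the 10 were above 0, as were 51.3% of all genes. None was called by edgeR, with 0% of all genes called in either direction, nor by DESeq2 or limma-voom. Over all genes DESeq2 called 128 higher and 120 lower of 13193, and limma-voom 0 of 12744. H2-DMb2 was the only member with an unadjusted p under 0.05 by edgeR (4.43% of all genes lower, 4.99% higher). H2-DMb2 had 2 counts in the 3 double-genotype libraries and 44 in wildtype, a ratio of 0.055 (95% exact counting interval 0.00646 to 0.211), with 35 of the 44 in A040. H2-Eb1 had the highest log2 fold change, 1.13 ± 1.17 (SE, edgeR adjusted p = 0.789). Leaving out A031, whose label the Mir146 counts go against, moved the median to 0.10. It was 0.84 without A015, where 4 genes in place of 1 had an unadjusted p under 0.05, and 0.76 without A001. H2-Eb1 ranged from 0.20 without A051 to 3.10 without A015.

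Against Runx1mut, the double genotype shows what a missing miR-146a changes beside mutant Runx1. The median log2 fold change was 0.26, from -1.24 for H2-DMb2 to 1.00 for H2-Eb1, beside 0.01 over all genes, and 6 of the 10 were above 0 (50.4% of all genes). No member was called by edgeR, DESeq2 or limma-voom. Over all genes edgeR called 0%, DESeq2 75 higher and 10 lower of 15015, and limma-voom 0 of 12744. None had an unadjusted p under 0.05 (2.88% of all genes higher, 1.75% lower), and none was separated (3.85% and 5.42%). The median was -0.27 without A031, -0.09 without A021 and -0.03 without A051, but 0.72 without A001 and 0.52 without A058, where 2 genes had an unadjusted p under 0.05. Cd74 was at 36.4, 209 and 331 CPM in A001, A031 and A051 of miR146aKO_Runx1mut and at 50.2, 5.83 and 345 CPM in A021, A042 and A058 of Runx1mut. The 2 groups spanned nearly the same range.

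Set against miR146aKO, the double genotype was on the lower side for all 10 genes. This comparison asks what the Runx1 mutation adds where miR-146a is absent, and it shares the miR146aKO libraries with the comparison against wildtype above. The median log2 fold change was -3.98, from -8.28 to -0.65, beside -0.01 over all genes, of which 49.6% were above 0. None was called by edgeR, where 0.0157% of all genes were called lower, while 8 had an unadjusted p under 0.05, against 7.17% of all genes lower and 7.6% higher. The number called was 7 by DESeq2, 1 by limma-voom and 8 by edgeR with no low-count filter. Those fits called 3.51%, 0.0942% and 1.53% of all their genes lower. For 7 genes the libraries did not overlap, against 9.81% of all genes lower and 9.45% higher. For H2-DMb2, which is 1 of the 7, this rests on 2 counts in A047 and 2 in A051. These are 0.632 and 0.485 CPM, both under the floor of 3 counts. Leaving out A031 gave 0 calls and a median of -4.33.

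In miR146aKO_Runx1mut against miR146aKO, H2-Ab1 had a log2 fold change of -3.91 ± 0.85 (SE, edgeR adjusted p = 0.0955), Cd74 of -4.32 ± 1.14 (adjusted p = 0.132) and H2-Aa of -4.05 ± 1.17 (adjusted p = 0.155). H2-Oa was at 1.55, 0.711 and 5.33 CPM in A001, A031 and A051 of miR146aKO_Runx1mut, against 49.4 to 64.0 CPM in miR146aKO. Its log2 fold change was -4.51 ± 1.10 (adjusted p = 0.119). H2-DMb2 had 2 counts against 627, a ratio of 0.00234 (95% exact counting interval 0.000283 to 0.00848), though A047 of miR146aKO had only 2 of the 627. Such intervals cover counting error only. H2-DMb1 was at -1.69 ± 1.04 (adjusted p = 0.472) and H2-DMa nearest 0, at -0.65 ± 1.11 (adjusted p = 0.826).

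Whether the Runx1 mutation acted differently with and without miR-146a was tested by the interaction, the log2 fold change of miR146aKO_Runx1mut over miR146aKO minus that of Runx1mut over wildtype. It was below 0 for all 10 genes, with a median of -3.72 beside 0.03 over all genes, of which 50.9% were above 0. None was called by edgeR, where 0.0235% of all genes were called lower, and 7 had an unadjusted p under 0.05, against 5.04% of all genes. DESeq2 called H2-Ab1 (1.11% of all its genes lower), limma-voom called none (0%) and edgeR without a low-count filter called 6 (0.932%). H2-Ab1 was at -4.26 ± 1.11 (SE, edgeR adjusted p = 0.312) and Ciita at -4.80 ± 1.80 (adjusted p = 0.437), or -8.07 without A015. Without A058 3 members, and without A151 or A001 4, in place of 7 had an unadjusted p under 0.05.

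Most of the 10 genes varied together from library to library. Each gene's log2 CPM was set beside the mean of the other 9 over the 12 libraries, which come from 4 genotypes and share library scaling. Pearson's r was 0.977 for H2-Ab1, 0.927 for H2-Aa, 0.897 for Ciita, 0.886 for H2-Eb1 and 0.858 for Cd74, but 0.159 for H2-DMa (Spearman 0.93, 0.867, 0.888, 0.874, 0.853 and -0.049). Without A150 and A151, the libraries farthest from the rest, r was 0.914, 0.844, 0.838, 0.828 and 0.76 for the first 5 and -0.572 for H2-DMa. It was also much smaller then for H2-Ob (0.387 in place of 0.815), H2-Oa (0.319 in place of 0.664), H2-DMb1 (0.389 in place of 0.733) and H2-DMb2 (-0.021 in place of 0.758). After each genotype's mean was taken out, r over all 12 libraries was 0.936 for H2-Ab1, 0.853 for H2-Aa, 0.764 for Ciita and 0.733 for H2-Eb1. It was 0.59 for Cd74, 0.154 for H2-DMa and 0.00343 for H2-Oa. The chains, Cd74 and Ciita thus varied together also among the 10 other libraries and around the genotype means. Neither check left out all of miR146aKO, as A047 stayed in the first and A150 and A151 in the second.

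**Figure D3:**
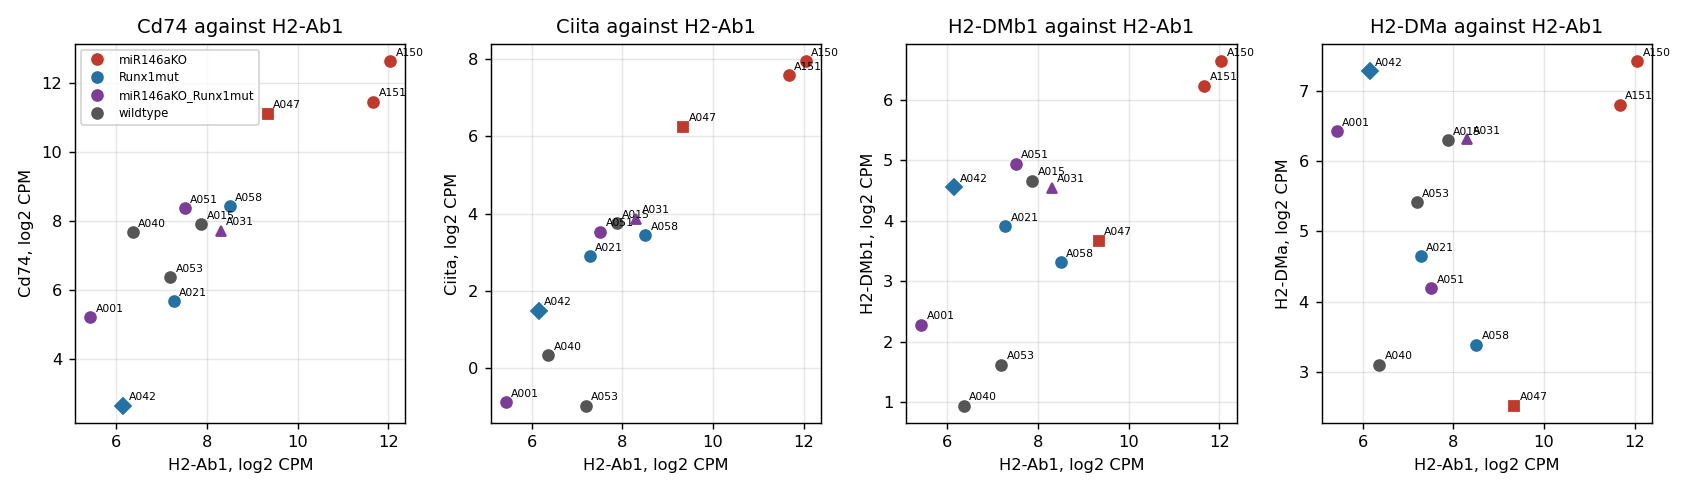
Level of Cd74, Ciita, H2-DMb1 and H2-DMa (y axes, log2 CPM) against that of H2-Ab1 (x axes, log2 CPM), 1 point per library, coloured by genotype (A047 square, A042 diamond, A031 triangle). Cd74 and Ciita climb with H2-Ab1, whereas H2-DMa does not, with A042 high and A047 low.

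The 8 other genes whose pattern was most like the mean of the 10, among 11999 tested genes without predicted gene models, were Cxcr5 (r = 0.971), Fcer2a (0.955), Cr2 (0.953), Pgap1 (0.948), Cnp (0.938), Cd22 (0.938), Kynu (0.927) and Ppp1r16b (0.920) over the 12 libraries. Fcer2a, Cr2 and Cd22 also stand in the B lineage marker list. Without A150 and A151, r ran from 0.789 for Fcer2a to 0.970 for Ppp1r16b over 10 libraries.

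Further genes of the pathway were taken from a list of 32, of which 31 were tested. None was called in any of the 6 contrasts by edgeR. In miR146aKO against wildtype 13 were higher and 1 lower at an unadjusted p under 0.05, against 8.81% and 7.09% of all genes, and the median log2 fold change was 1.45. Among the 13, Pax5, Cd80, Cd40 and H2-Eb2 had 0, 1, 6 and 6 counts in wildtype. They passed the low-count filter through other groups and could hardly have come out lower, so they add little to the number higher. The 6 proteases and reductase of the loading compartment were all above 0, as were 49.9% of all genes. Ctsb, cathepsin B, was at 538 to 2903 CPM in miR146aKO and 49.3 to 202 CPM in wildtype (log2 fold change 3.94 ± 0.86 SE, edgeR adjusted p = 0.0685). Ifi30, the thiol reductase that opens disulphide bonds of antigens, was at 105 to 227 and 8.40 to 28.6 CPM (adjusted p = 0.0603). March1, the ligase that marks surface class II for turnover, was at 13.3 to 97.0 CPM in miR146aKO and 0.142 to 2.44 in wildtype (adjusted p = 0.0896).

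The 4 costimulatory genes were uneven among the miR146aKO libraries. Cd86, a ligand of CD28, was at 0, 127 and 107 CPM in A047, A150 and A151 of miR146aKO and at 2.46, 7.55 and 0 CPM in A015, A040 and A053 of wildtype. Cd40, the receptor for T cell help, was at 0.632, 72.8 and 99.1 CPM in those miR146aKO libraries, 2 counts in A047, and at 0.142 to 0.547 CPM in wildtype. Of these 6 libraries, A150 and A151 were the highest for both genes. Cd80, the other CD28 ligand, was at 33.8, 6.78 and 12.4 CPM in A047, A150 and A151 of miR146aKO and at 0.137, 0 and 0 CPM in A015, A040 and A053 of wildtype (edgeR adjusted p = 0.0965). Icosl, the ligand of ICOS, was at 12.01 to 115 CPM in miR146aKO and 0.222 to 5.55 in wildtype (adjusted p = 0.0965). Pax5, the B lineage factor, was at 0.316 (A047), 134 (A150) and 140 CPM (A151) in miR146aKO, with 0 counts in all 3 wildtype libraries (adjusted p = 0.103). The 7 factors that bind class II promoters, among them Rfx5, Rfxank, Rfxap and the NF-Y subunits, had a median log2 fold change of 0.29, and 4 of 7 were above 0, beside the 49.9% of all genes.

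The 6 proteases and reductase had a median log2 fold change of 2.22 in miR146aKO_Runx1mut against wildtype, where the 3 class II chains were at 0.22 to 1.13. The difference between these gene groups was not tested. Ctsd, cathepsin D, was at 584, 307 and 3337 CPM in A001, A031 and A051 of miR146aKO_Runx1mut and 215 to 335 CPM in wildtype (edgeR adjusted p = 0.475), so A031 lay within the wildtype range. Ctsb was at 480, 391 and 1985 CPM in the same libraries (adjusted p = 0.425), Lgmn at 14.5, 59.5 and 175 CPM against 0.854 to 6.29 in wildtype (0.425), and Cd80 and Ifi30 had adjusted p = 0.357 and 0.475. Irf1, an interferon-induced factor that can switch on Ciita, was lower, at 14.8 to 30.1 CPM in miR146aKO_Runx1mut and 48.6 to 123 CPM in wildtype (log2 fold change -1.86 ± 0.51 SE, adjusted p = 0.408). None of these passed the threshold.

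Irf1 stood lower in Runx1mut against wildtype and in the double genotype against miR146aKO as well. Between the double genotype and Runx1mut it differed little (log2 fold change -0.17 ± 0.49 SE). It was at 19.0 to 37.7 CPM in Runx1mut, all under the 48.6 CPM of the lowest wildtype library (log2 fold change -1.70 ± 0.51 SE, edgeR adjusted p = 0.618). Such a separation downwards was found for 6.41% of all genes. Set against miR146aKO, where it was at 65.2 to 75.0 CPM, the double genotype was also below (-1.58 ± 0.51, adjusted p = 0.177). In Runx1mut against wildtype March1, Creb1, H2-Eb2, Lgmn and Nfya came next in order of adjusted p, at 0.856 to 0.932. Over Runx1mut, the double genotype had its smallest adjusted p for Cd80, at 0.974. In the interaction Icosl had the smallest, at 0.341.

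B lineage markers were highest in the same 3 libraries. In their list, 15 of 17 genes were in the table, all with counts in each miR146aKO library, and 10 to 15 had counts in the other 9. The summed level was 740, 3742 and 4056 CPM in A047, A150 and A151 of miR146aKO, 29.7 to 292 CPM in Runx1mut, 99.7 to 237 CPM in miR146aKO_Runx1mut and 55.3 to 113 CPM in wildtype. Pax5 had no count in any wildtype library, in A042 or in A001. Their part in the class II values was not tested.

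Macrophage markers were shared out differently. The summed level of 16 monocyte and macrophage genes was 1233, 8789 and 6012 CPM in A047, A150 and A151 of miR146aKO and 283 to 1205 CPM in wildtype. In A001 and A031 of miR146aKO_Runx1mut it was 2529 and 1622 CPM, also above the wildtype range. In A051 of miR146aKO_Runx1mut it was 6581 CPM, above A151, and C1qb, a complement gene of macrophages, was at 1085 CPM there. The 10 class II genes together were at 994 CPM in A051, 11326 CPM in A151 and 921 CPM in A015 of wildtype. The part of macrophage cells in the class II values was not tested. In A047 of miR146aKO 13 of the 16 genes had counts, and Fcgr1, Vsig4 and Cd14 were at 0. Fcgr1 and Cd14 were at 0 in A053 of wildtype as well.

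Dendritic cell markers overlapped in sum but not in mean log2 CPM. Their 13 genes summed to 444 to 821 CPM in miR146aKO and 269 to 614 CPM in wildtype. Their mean log2 CPM was 2.83 to 3.19 in miR146aKO, above the other 9 libraries, and 1.14 to 1.87 in wildtype. In miR146aKO against wildtype 8 of the 13 genes were tested. Of these, 6 were above 0, beside 49.9% of all genes, and the median log2 fold change was 1.26. Itgax was at 13.8 to 29.1 CPM in miR146aKO and 0 to 5.70 CPM in wildtype. In these 6 libraries Siglech was at 0 in A047, A151, A015 and A040. Stromal and endothelial genes summed to 79.0, 2430 and 2368 CPM in A047, A150 and A151 of miR146aKO and to 67.6 to 182 CPM in wildtype. A047 also held 1887 CPM of T and NK cell genes, beside 363 and 191 CPM in A150 and A151 and 90.0 to 366 CPM in wildtype, with Cd3e at 644 CPM. Stem and early progenitor genes summed to 735 to 1587 CPM in miR146aKO and 1806 to 4093 CPM in wildtype. These sums include Ly6a, at 505 to 1019 CPM in miR146aKO and 46.0 to 216 CPM in wildtype. Of the 12 genes 1 was above 0 in this contrast, beside 49.9% of all genes, and the median log2 fold change was -2.65. Y-linked genes summed to 99.3 to 241 CPM in miR146aKO and 0.547 to 32.0 CPM in wildtype, so sex-linked transcripts differed between these groups too. Their sums were 26.2 to 170 CPM in Runx1mut and 13.8 to 214 CPM in miR146aKO_Runx1mut. With a Y-linked covariate the median log2 fold change of the members in miR146aKO against wildtype was 4.41. Then 6 in place of 9 members had an unadjusted p under 0.05. The calls over all genes were then 9 higher and 0 lower, in place of 19 and 4. In Runx1mut against wildtype the covariate moved the members' median from 0.24 to 0.67. In miR146aKO_Runx1mut against wildtype the median moved from 0.40 to 1.04, and in the interaction from -3.72 to -4.20. The part of these lists in the class II values was not tested.

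**Figure D4:**
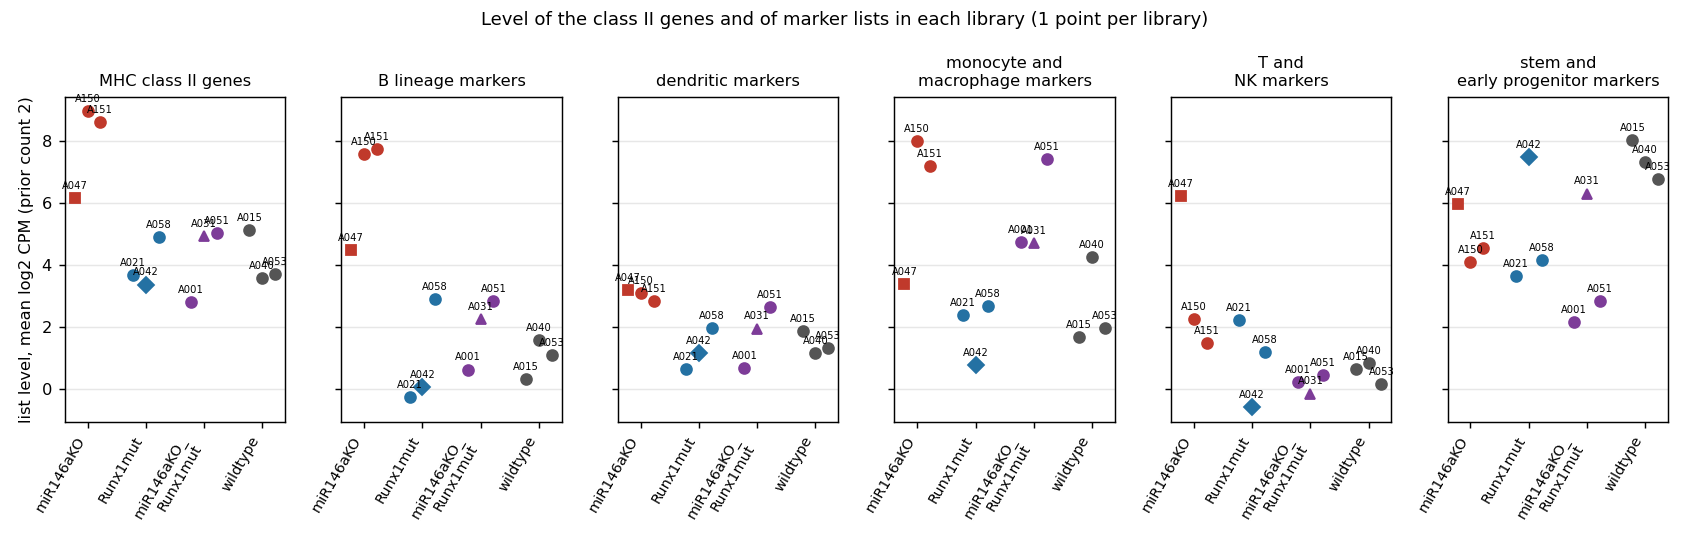
Mean log2 CPM (y axis, prior count 2) of the 10 class II genes and of 5 marker lists in each library, by genotype, with 1 labelled point per library. A150 and A151 are highest for class II and B lineage genes, and A051 lies between them for macrophage genes and below them for class II.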

How the data were processed

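The deposited data are raw counts, made by the authors and not normalized, with 1 row for each gene symbol. The submitters' processing notes name mm10, featureCounts 1.5.2, HISAT2 2.0.4 and FastQC 0.11.2. Per the labels' protocols, RNA was amplified to cDNA with the NuGEN Ovation system and made into libraries with Nextera XT, which keeps no strand. No source used here gives the strand setting, the treatment of multi-mapping reads or the gene models. A deposited table ties each column to a genotype, with no replicate number.

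All 12 libraries entered 1 edgeR 4.0.16 quasi-likelihood fit (R 4.3.3; TMM scaling, default low-count filter), with Benjamini-Hochberg adjustment over 12744 genes. A gene was called at an adjusted p under 0.05. Replicates varied with a common coefficient of 0.809 (edgeR's BCV). The fit was tested on data simulated with the spread estimated here, for miR146aKO against wildtype. It called 10.3% of 87 genes given a log2 fold change of 2 up or down. Of 109 genes given 4 it called 54.1%, and it also called 4 unchanged genes. A gene that was not called can therefore still differ. CPM use the TMM factors, log2 CPM a prior count of 2, and a floor of 3 counts equals 0.41 to 0.948 CPM. Levels per kilobase use the union of GENCODE exons. DESeq2 1.42.0, limma-voom 3.58.1, other scalings and filters, and leaving out each library were alternatives.

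Members and lists were chosen with earlier results of these data known. All members are named, with up to 6 genes of the pathway list per contrast by smallest adjusted p and the 8 genes most like the members by Pearson's r. Overlapping genes, markers and promoter letters were chosen after their values were seen. Some genes that these rules name are not reported here.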

Additional observations from a re-analysis of the deposited data

How the results depend on the processing

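No paired analysis was possible because the count columns carry no replicate number. The number of class II genes called was 0 by edgeR in all 6 contrasts and also with RLE scaling, without Rn45s and with a Y-linked covariate. It depended on the test: in miR146aKO against wildtype it was 6 without a low-count filter, 6 by DESeq2, 2 by limma-voom and 3 when only those groups were fitted. In miR146aKO_Runx1mut against miR146aKO it was 8 without the filter, 7 by DESeq2 and 1 by limma-voom, and in the interaction 6 and 1 by the first 2. Leaving out 1 library gave 0 to 2 calls in miR146aKO against wildtype and none elsewhere. Over all genes, DESeq2 called 625 higher and 355 lower in that contrast, limma-voom 70 and 6, and edgeR without the filter 544 and 252, in place of 19 and 4. With only those groups fitted, edgeR called 126 higher and 32 lower of 11418 genes. For an unadjusted p, the share over all genes was computed only in the fit of all 12 libraries. Without 1 library edgeR called 2 to 113 higher and 0 to 22 lower, the most without A047. The median of the 10 was 3.76 to 4.70 over the leave-one-out fits in miR146aKO against wildtype, and -4.44 to -3.48 in miR146aKO_Runx1mut against miR146aKO. Leaving out 1 library at a time turned the sign only for H2-DMa among the contrasts with miR146aKO: -1.97 to 0.65 in the interaction and -1.21 to 0.063 for the double genotype against miR146aKO. The cause was not tested. In the 3 contrasts with medians near 0, 6, 4 and 6 of the 10 genes changed sign in at least 1 of 19 alternatives (Runx1mut and the double genotype against wildtype, and the double genotype against Runx1mut). Where only the groups compared were fitted, H2-DMb2 failed the filter except in miR146aKO against wildtype, and the interaction, which needs all 4 groups, was not run that way. Counts as low as 1 in Ciita and H2-DMb2 limit those values.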

Other observations

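H2-Ea-ps, the pseudogene form of the I-E alpha chain, had 16 counts in A031 and 20 in A051, both labelled miR146aKO_Runx1mut, and 0 counts in the other 10 libraries, including A150 of miR146aKO with 5561 counts of its partner chain H2-Eb1. H2-Eb2, a further beta chain gene, was at 6.32 to 26.6 CPM in miR146aKO and 0 to 0.821 CPM in wildtype, with 18.3 CPM in A058 of Runx1mut. Counts of H2-Ob per count of H2-Oa were 0.737 in A047, 7.25 in A150 and 6.31 in A151 of miR146aKO, 1.02 to 1.67 in wildtype, and 74.2 in A031. A031 had 297 counts of H2-Ob and 4 of H2-Oa.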
